A study of Mus musculus with 12 samples.

Results

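The genes described here are the glucose, amino acid and monocarboxylate carriers of mouse regulatory T cells (Tregs), taken as every gene symbol in the families Slc1, Slc2, Slc3, Slc7, Slc16, Slc38 and Slc43. The rule matched 66 of 23352 gene symbols. Of these, 64 name transporters or their partner chains, and 2 do not: Slc2a4rg-ps is a pseudogene symbol and Slc7a6os is a neighbour on the opposite strand of Slc7a6. Both matched the pattern by name, were expressed (mean 27.5 and 32.3 FPKM) and were called in no comparison, and all counts below are over the 64. Of the 64, 29 reached 1 FPKM in at least 2 libraries and were tested, and 35 did not. Of the 29, Slc7a10, Slc7a7 and Slc2a6 reached 1 FPKM in CD62Llo libraries only (6, 6 and 2 of them), so they passed this filter through 1 fraction.

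The Tregs were sorted from spleens and lymph nodes (LN), and all mice were female and of strain C57BL/6, in 4 groups. Ezh2-KO-CD62Llo and Ezh2-KO-CD62Lhi cells came from Foxp3YFP-Cre/Foxp3WT;Ezh2fl/fl animals, and Ezh2-HET-CD62Llo and Ezh2-HET-CD62Lhi cells from Foxp3YFP-Cre/Foxp3WT;Ezh2fl/+ animals, so the controls also carry the Cre and 1 floxed Ezh2 allele. The question asked was how loss of Ezh2, the methyltransferase of Polycomb repressive complex PRC2, bears on Tregs with the CD62Lhi surface of resting cells and the CD62Llo surface of activated ones. The Cre is driven from the X-linked Foxp3 gene on 1 of the 2 alleles, so some Tregs of these females do not express it, and whether Cre-expressing cells alone were sorted is not given in the sources used here. Each group had 3 libraries, except that Ezh2-HET-CD62Lhi replicate 3 was left out, as its label says the submitters did, leaving 2 there and 11 in all. The labels do not say that replicates came from separate animals, so p-values measure the spread between these libraries, which may be technical.

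Cells take up glucose through the facilitative Slc2 (GLUT) carriers and exchange lactate and other monocarboxylates with protons through some Slc16 (MCT) carriers. Glutamine and small neutral amino acids enter through Slc1a5 and the sodium-coupled Slc38 carriers, large neutral amino acids through exchangers made of an Slc7 light chain and the Slc3a2 heavy chain, and arginine and lysine through the cationic carriers Slc7a1 to Slc7a3. In T cells, several of these carriers are known to be induced by antigen receptor stimulation, with Slc2a1 and Slc7a5 the best studied, and amino acid supply feeds the kinase complex mTORC1.

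The 11 libraries correlated at 0.949 to 0.978 within groups over tested genes. Their relative depths were estimated at 0.504 to 1.84 from the interval bounds deposited beside each FPKM. The estimate assumes that each interval spans a fixed number of SDs to each side. As 12.1% to 30.8% of entries above 1 FPKM exceeded their own upper bound, these depths are rough. Foxp3 was at 75.9 to 96.8 FPKM in every library, so the cells carried the defining Treg transcript. Ezh2 was at 12.5, 16.8 and 14.4 FPKM in KO CD62Llo against 18.2, 17.8 and 20.5 in HET CD62Llo libraries, and at 9.15, 11.5 and 11 in KO CD62Lhi against 12.7 and 12.5 in HET CD62Lhi libraries. A gene total includes reads from any exons outside the deleted part, so it is a weak check of the deletion. Summed markers of other cells differed between the fractions, B cell markers being at 24.6 to 69.6 FPKM in CD62Llo and 83.1 to 143 in CD62Lhi libraries, CD8 T and NK cell markers at 15.2 to 22.1 and 34.8 to 51.4, and stroma and endothelium markers at 37.4 to 56.3 and 67.3 to 78.7. The 5 plasma cell markers in the files were higher in CD62Llo libraries (51.5 to 87.7 against 41.7 to 48.4), while red cell and platelet markers overlapped, from 3.21 to 237. None of the 8 B cell, 7 CD8 T and NK cell and 5 plasma cell markers was at 0 throughout a group. Their part in the differences below was not tested, and in sorted bulk samples fewer cells of a type and less RNA per cell cannot be told apart. Nor can marker RNA from other cells be told from marker RNA of the Tregs themselves.

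A few carriers made up most of the transporter signal. Slc1a5 (ASCT2), which exchanges glutamine for other neutral amino acids, averaged 102 FPKM over the 11 libraries and held 27.6% of the summed FPKM of the 64 transporters. With Slc3a2 (35.7 FPKM, the heavy chain shared by Slc7 exchangers), Slc38a2 (30.4 FPKM) and Slc38a10 (27.8 FPKM) it made up 53.0%, and the 10 highest made up 79.9%. FPKM is scaled by transcript length, so these levels can be set beside each other. The glucose carriers Slc2a3 (GLUT3) and Slc2a1 (GLUT1) averaged 19.0 and 17.8 FPKM. In HET cells Slc2a3 lay above Slc2a1 in every library (18.1 to 21.3 against 13.9 to 17.5 FPKM in CD62Llo and 20.5 to 21.8 against 19.1 to 19.2 FPKM in CD62Lhi). In KO cells their ranges overlapped in both fractions. Slc2a3 lay below Slc2a1 in every KO CD62Llo library (15.9 to 16.9 against 16.6 to 17.6 FPKM). In KO CD62Lhi cells the order differed between libraries (17.8 to 20.4 against 18.3 to 20.2 FPKM). Among the monocarboxylate carriers the highest was Slc16a6 at 8.25 FPKM, ahead of Slc16a1 (MCT1, 5.77 FPKM) and Slc16a3 (MCT4, the lactate exporter of glycolytic cells, 3.64 FPKM). Among the Slc7 genes, Slc7a5 and Slc7a6 averaged 14.6 and 13.6 FPKM with overlapping library ranges, and Slc43a2 averaged 13.8 FPKM.

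By family, the tested genes were 1 of 7 in Slc1, 5 of 12 in Slc2, 1 of 2 in Slc3, 7 of 15 in Slc7, 6 of 14 in Slc16, 6 of 11 in Slc38 and 3 of 3 in Slc43. Among the 35 not tested, 6 were listed at 0 in all 11 libraries and 16 had no library above 0.1 FPKM. Slc1a4, a carrier of alanine, serine and cysteine, alone of the 35 reached 1 FPKM in any library, with 1.77 FPKM in HET CD62Llo replicate 2 against 0.412 and 0.345 FPKM in the other HET CD62Llo libraries. The summed FPKM of all 64 was 373 ± 9.46 in KO CD62Llo and 345 ± 13.2 in KO CD62Lhi libraries (SD, n = 3 each). In HET it was 399 ± 10.9 in CD62Llo (SD, n = 3) and 357 ± 16 in CD62Lhi libraries (SD, n = 2).

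**Figure D1:**
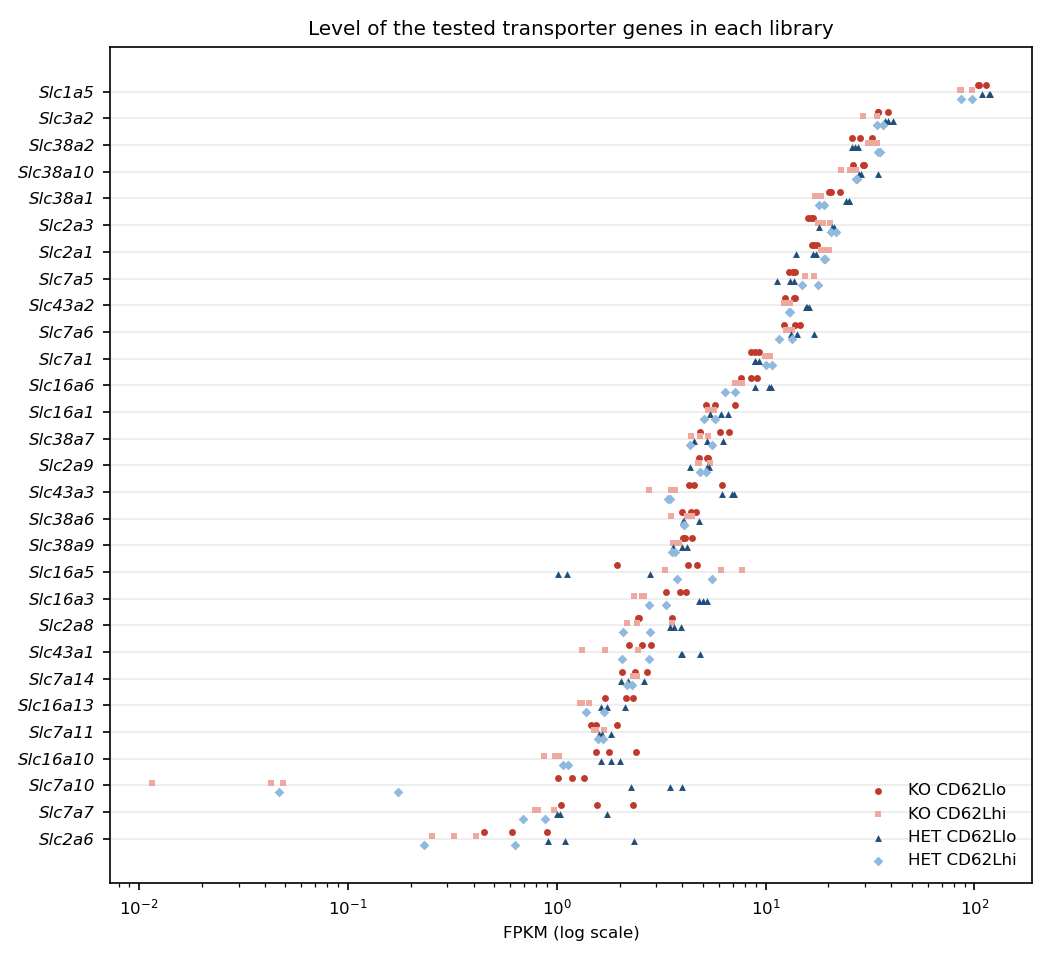
FPKM (log scale) of the 29 tested transporter genes in each of the 11 libraries, ordered by mean; each point is a library, with KO CD62Llo in red circles, KO CD62Lhi in pink squares, HET CD62Llo in dark blue triangles and HET CD62Lhi in light blue diamonds. Slc1a5 lies at 84.8 to 119 FPKM, and Slc7a10 is the gene whose libraries lie furthest apart, from 0.0115 to 3.96 FPKM.

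Between the CD62L fractions transporters moved in both directions. In HET Tregs, 13 of the 29 tested genes were called between CD62Llo and CD62Lhi cells (limma on log2(FPKM + 1) over all genes, Benjamini-Hochberg adjusted p under 0.05). Of these, 10 rose in CD62Llo cells, where 18.8% of the 11431 genes tested were called higher, and 3 fell, where 8.88% were called lower (27.7% in either direction). In KO Tregs 8 genes were called, 7 rising, where 11.9% of all genes did, and 1 falling, where 4.26% did (16.2% in either direction). The median log2 change of the 29 was 0.14 in KO and 0.14 in HET cells, beside 0.05 and 0.07 over all genes tested. Every CD62Llo library lay above every CD62Lhi library in 11 of the 29 in KO (24.3% of all genes) and 14 in HET (36.1%). Every one lay below in 4 in KO (10.5% of all genes) and 5 in HET (17.9%). Groups without overlap were thus common among all genes. The 29 include the 3 genes that passed the filter through CD62Llo libraries alone. The comparisons share no library, and 7 genes were called in both: Slc7a10, Slc43a3, Slc16a3, Slc16a10, Slc38a1 and Slc1a5 rose and Slc7a1 fell, which is 87.5% of the KO calls and 53.8% of the HET calls. Both comparisons come from 1 fit with a shared estimate of each gene's spread, so their calls are not independent. The matching overlap over all genes was not counted. Leaving out the 3 genes that passed the filter through CD62Llo libraries alone, 8 of 26 rose and 3 fell in HET, and 6 rose and 1 fell in KO. No transporter was called for a difference between the 2 fraction changes: limma's interaction term called 1 of 11431 genes (0.00875%), and 3 of the 29 and 868 of all genes had an unadjusted p under 0.05.

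The split between rising and falling genes depended on how libraries were scaled. Median centring and quantile normalization lowered the median change of all genes by 0.10 on the log2 scale in HET. The calls in HET, 10 higher and 3 lower as deposited, were then 5 and 5 with median centring, where 13.3% of all genes were called higher and 16.3% lower, and 7 and 5 with quantile normalization, where 12.5% and 14.3% were. Those in KO, 7 higher and 1 lower as deposited, were 4 and 4 with median centring (8.81% and 8.63% of all genes) and 4 and 3 with quantile normalization (8.35% and 6.97%). The split thus moved with that of all genes. Median centring ended the HET calls of Slc1a5 (adjusted p = 0.0616), Slc16a10 (0.067), Slc2a6 (0.0779), Slc43a1 (0.0556) and Slc43a2 (0.0535) and the KO calls of Slc1a5 (0.116), Slc38a1 (0.0556) and Slc16a13 (0.0679). Quantile normalization ended those of Slc16a10 (0.167), Slc2a6 (0.166) and Slc43a1 (0.114) in HET and of Slc16a13 (0.181), Slc38a1 (0.0526) and Slc43a3 (0.0785) in KO. Median centring and quantile normalization both added lower calls. These were Slc2a1 (0.0105 and 0.0121) and Slc16a5 (0.0361 and 0.0289) in HET, and Slc2a3 (0.0167 and 0.0249) and Slc7a5 (0.0128 and 0.0151) in KO. Median centring alone also added Slc2a1 in KO (0.0437).

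Other choices ended further calls. Without the filter on low values those of Slc2a6 in HET (0.0618) and of Slc1a5 (0.0515) and Slc43a3 (0.0589) in KO were lost. A fit of the 2 groups compared alone ended those of Slc2a6 (0.135), Slc7a1 (0.102) and Slc7a5 (0.0938) in HET and of Slc1a5 (0.0618), Slc38a1 (0.0643), Slc43a3 (0.0901), Slc7a1 (0.081) and Slc16a13 (0.058) in KO. The HET count fell to 6 without CD62Lhi replicate 1 (16.8% of all genes called) and 7 without CD62Lhi replicate 2 (17.6%). The KO count was 4 without CD62Lhi replicate 1, 3 without CD62Lhi replicate 2, 5 without CD62Llo replicate 1, 3 without CD62Llo replicate 2 and 10 without CD62Llo replicate 3, where 10.6%, 10.7%, 12.7%, 10.4% and 17.3% of all genes were called in that order. Each of the 24 called changes kept its sign in every alternative run, and 8 stayed past the threshold in all of them: Slc7a10, Slc16a3 and Slc16a10 in KO, and Slc7a10, Slc43a3, Slc16a3, Slc16a6 and Slc38a1 in HET.

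**Figure D2:**
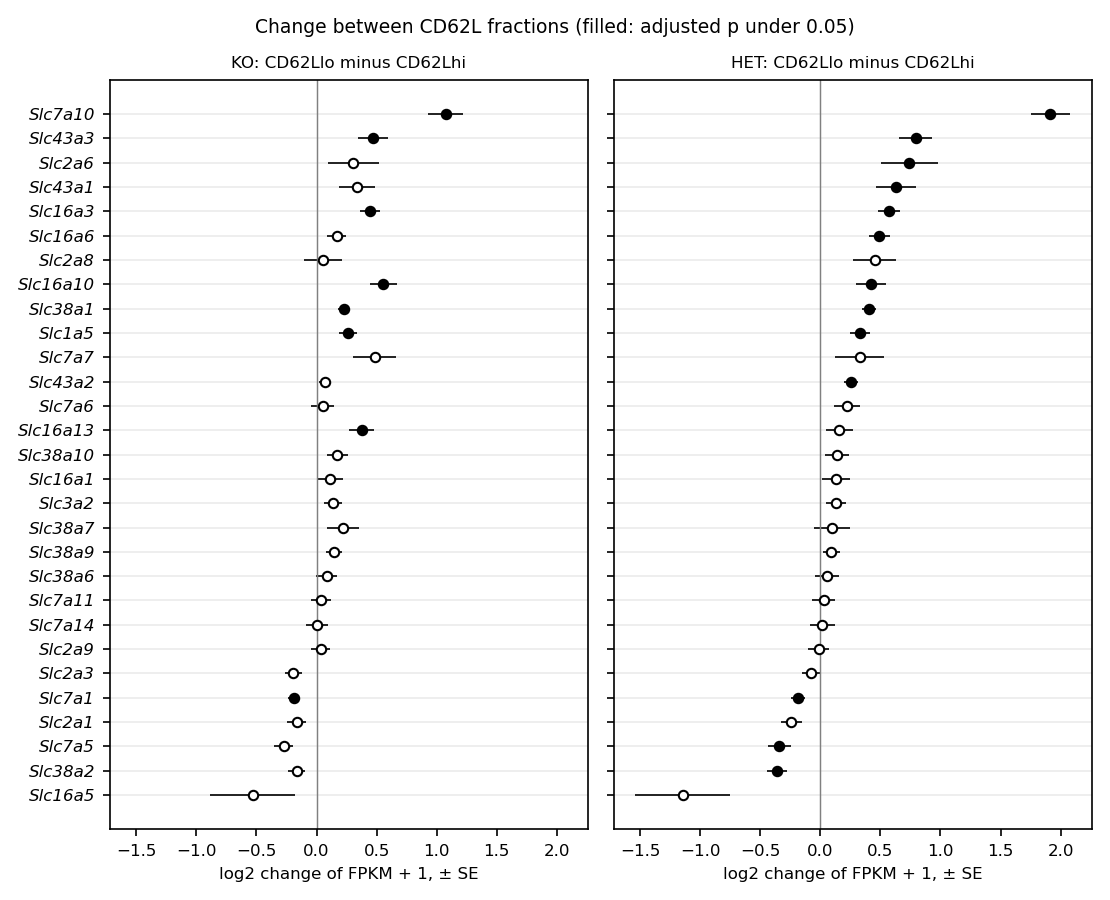
Change of each tested transporter gene between CD62Llo and CD62Lhi Tregs, as log2 change of FPKM + 1 with its standard error, in KO (left) and HET (right); filled points have an adjusted p under 0.05. Slc7a10 is at the top in both panels, at 1.07 in KO and 1.92 in HET.

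Slc7a10 (Asc-1), which passed the filter through its CD62Llo libraries alone, had the widest fraction difference of the tested carriers. It is a light chain that pairs with Slc3a2 and exchanges alanine, serine, glycine and cysteine, known mainly from brain and fat cells. In KO it was at 1.19, 1.01 and 1.34 FPKM in CD62Llo cells, against 0.0427, 0.0115 and 0.0489 FPKM in CD62Lhi cells. In HET it was at 3.49, 3.96 and 2.28 FPKM in CD62Llo cells, against 0.0467 and 0.174 FPKM in CD62Lhi cells. All CD62Llo libraries lay above all CD62Lhi libraries in both genotypes, and all KO CD62Llo libraries lay below all HET CD62Llo libraries. The ratio of the group means was 34.4 in KO and 29.3 in HET, with CD62Lhi levels near 0. Leaving out 1 library moved it to between 25.8 and 43.6 in KO, and in HET it was 18.6 without CD62Lhi replicate 1 and 69.5 without CD62Lhi replicate 2. The fitted rise on log2(FPKM + 1), a scale that compresses changes of genes this low, was 1.07 (SE 0.148, adjusted p = 0.00133) in KO and 1.92 (SE 0.165, adjusted p = 5e-05) in HET cells. Over the alternatives it ran from 0.97 to 3.26 in KO and from 1.68 to 4.02 in HET, the highest in each with a pseudocount of 0.1. Without the filter the adjusted p was 0.00237 in KO and 0.000133 in HET. The gene spans chr7:35186384-35201111 (mm10, plus strand) and shares 1085 bases with Lrp3 on the opposite strand. Lrp3 was at 0.0374 to 0.0618 FPKM in KO CD62Llo and 0.144 to 0.197 FPKM in HET CD62Llo cells and listed at 0 in the CD62Lhi libraries of both genotypes, and since the strand of the counting is not stated, reads in the shared stretch cannot be told apart.

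The promoters of the genes called in the same direction in both genotypes are shown where the RefSeq table (GRCm38.p6, 250 bases before and 50 after the start) has an entry, which it has for 4 of the 7. Capitals mark ACGTG, the core of the hypoxia response element, and TGANTCA, the AP-1 site. They are at chr7:35186135-35186434 (plus strand) for Slc7a10, chr11:120948817-120949116 (plus) for Slc16a3, chr10:40142205-40142504 (minus) for Slc16a10 and chr5:148399855-148400154 (minus) for Slc7a1.
Slc7a10: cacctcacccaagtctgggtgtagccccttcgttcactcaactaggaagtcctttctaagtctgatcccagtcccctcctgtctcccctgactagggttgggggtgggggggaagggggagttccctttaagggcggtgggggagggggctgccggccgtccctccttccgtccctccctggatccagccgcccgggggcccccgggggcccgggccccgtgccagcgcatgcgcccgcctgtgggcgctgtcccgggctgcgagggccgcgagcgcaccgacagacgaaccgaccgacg
Slc16a3: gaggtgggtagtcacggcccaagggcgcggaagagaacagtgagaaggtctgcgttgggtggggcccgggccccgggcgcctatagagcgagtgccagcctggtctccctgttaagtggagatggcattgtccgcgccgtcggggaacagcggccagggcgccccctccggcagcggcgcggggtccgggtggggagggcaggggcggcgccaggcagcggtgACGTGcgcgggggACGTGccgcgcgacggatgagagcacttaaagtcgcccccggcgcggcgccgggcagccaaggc
Slc16a10: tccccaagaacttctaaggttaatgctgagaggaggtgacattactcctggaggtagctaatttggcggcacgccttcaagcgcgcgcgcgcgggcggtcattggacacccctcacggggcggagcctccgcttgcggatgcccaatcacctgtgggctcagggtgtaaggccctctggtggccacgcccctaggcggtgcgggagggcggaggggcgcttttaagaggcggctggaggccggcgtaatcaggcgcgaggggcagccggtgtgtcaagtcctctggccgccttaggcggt
Slc7a1: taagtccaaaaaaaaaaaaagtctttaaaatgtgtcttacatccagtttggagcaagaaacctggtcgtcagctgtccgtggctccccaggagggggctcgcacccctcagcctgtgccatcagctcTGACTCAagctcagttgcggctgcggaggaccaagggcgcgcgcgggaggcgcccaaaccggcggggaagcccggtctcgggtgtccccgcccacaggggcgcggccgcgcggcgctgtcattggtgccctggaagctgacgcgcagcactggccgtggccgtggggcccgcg
All 4 are rich in CpG, with 24, 36, 26 and 27 CpG dinucleotides in that order, beside a median of 22 (range 2 to 42) over the 21 of 29 tested transporters with an entry and 7 over the 32851 promoters in the table. ACGTG, searched on both strands, occurs 2 times in the Slc16a3 window and not in the other three. Over the 21 windows ACGTG was in 10, against 19.6% of all promoters, and TGANTCA was in 4, against 7.81%. The E-box CACGTG, which contains ACGTG, was in 4, against 7.15%. The ATF4 and C/EBP composite TGATGNAA was in 2, against 3.97%, one being that of Slc7a11, the cystine importer, which was not called in any comparison. The shares of all promoters are not matched for CpG content.

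All 3 Slc43 genes rose in HET CD62Llo cells, where 18.8% of all genes did, and 1 of them did in KO, where 11.9% did. Slc43a1 (LAT3) and Slc43a2 (LAT4) let leucine and other large neutral amino acids across without exchange, and Slc43a3 carries purine nucleobases. Slc43a3 was at 4.3, 6.2 and 4.53 FPKM in KO CD62Llo against 2.77, 3.52 and 3.67 FPKM in KO CD62Lhi cells. It was at 6.21, 7.07 and 6.91 FPKM in HET CD62Llo against 3.4 and 3.5 FPKM in HET CD62Lhi cells. The groups did not overlap in either genotype, and the log2 change was 0.47 (SE 0.123, adjusted p = 0.0302) in KO and 0.80 (SE 0.138, adjusted p = 0.00233) in HET.

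Slc43a1 was at 2.56, 2.21 and 2.82 FPKM in KO CD62Llo against 1.70, 1.32 and 2.44 FPKM in KO CD62Lhi cells, ranges that overlap (log2 change 0.34, SE 0.15, adjusted p = 0.171; without CD62Lhi replicate 3, 0.0488, in a range of 0.0488 to 0.498). The HET libraries had 3.95, 3.97 and 4.88 FPKM in CD62Llo against 2.05 and 2.77 FPKM in CD62Lhi cells, without overlap (log2 change 0.63, SE 0.168, adjusted p = 0.0204). Slc43a2 was at 12.4, 13.8 and 13.8 FPKM in KO CD62Llo against 13.1, 12.6 and 12.2 FPKM in KO CD62Lhi cells, which overlap (log2 change 0.07, adjusted p = 0.391, and -0.01 with median centring). HET cells had 15.8, 15.5 and 16.1 FPKM against 13.0 and 13.1 FPKM, without overlap (log2 change 0.26, SE 0.0575, adjusted p = 0.0085). Over 13 or 14 alternatives the adjusted p ran from 0.0149 to 0.106 for Slc43a3 in KO, lost without CD62Lhi replicate 1 (0.106) or 2 (0.0611) and without CD62Llo replicate 2 (0.0757). For Slc43a1 in HET it ran from 0.0183 to 0.164, lost without CD62Lhi replicate 1 (0.164) or CD62Llo replicate 3 (0.0624), and for Slc43a2 in HET from 0.00851 to 0.0599, lost without CD62Lhi replicate 1 (0.0599) or 2 (0.0508).

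**Figure D3:**
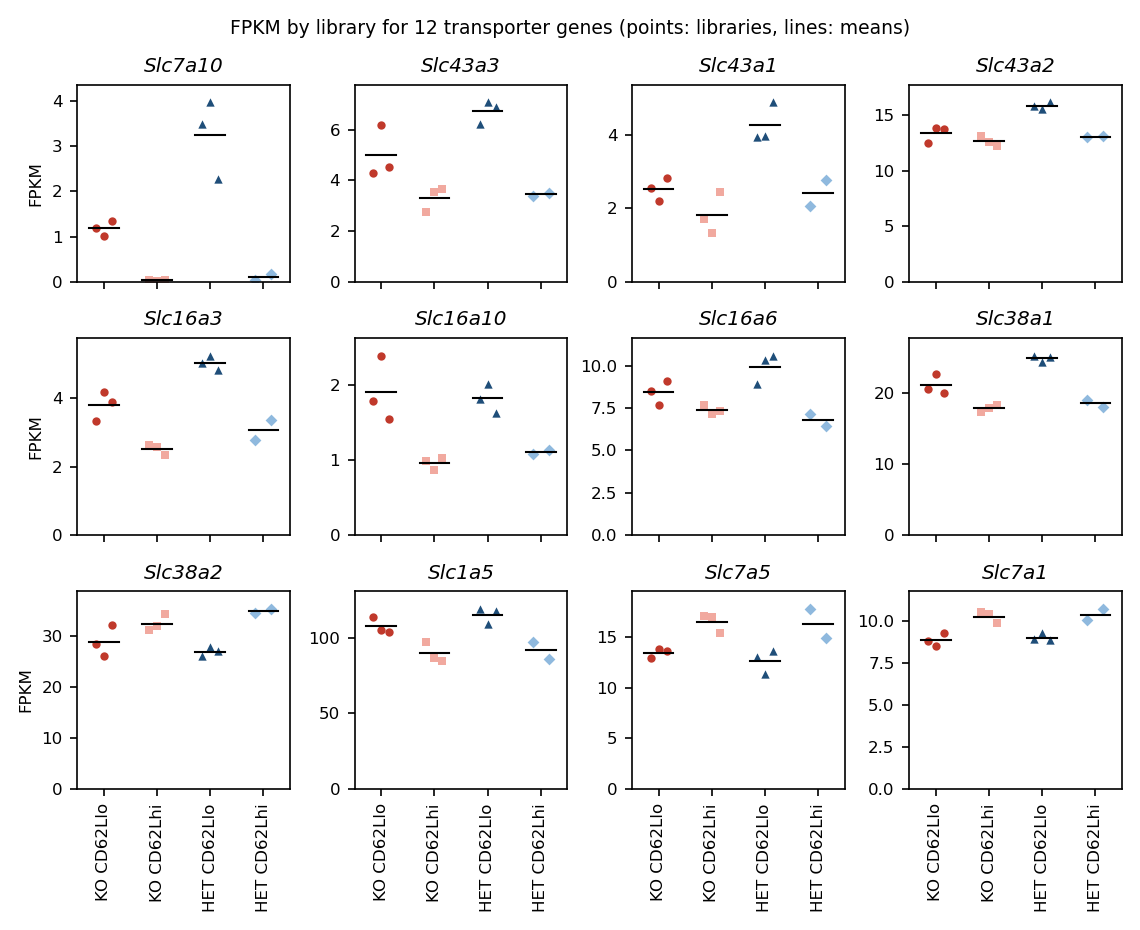
FPKM of 12 transporter genes called in at least 1 comparison, by group; each point is a library and each line a group mean, and every vertical axis starts at 0. Slc7a10 separates the fractions most widely, and Slc43a2 and Slc38a1 are among the genes with their highest values in HET CD62Llo libraries.

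Carriers of glutamine and small neutral amino acids moved in opposite directions. Slc1a5 was at 114, 105 and 104 FPKM in KO CD62Llo against 97.4, 86.4 and 84.8 FPKM in KO CD62Lhi cells. It was at 119, 109 and 118 FPKM in HET CD62Llo against 97.4 and 85.8 FPKM in HET CD62Lhi cells. The fractions did not overlap, and the log2 change was 0.26 (SE 0.0727, adjusted p = 0.0363) in KO and 0.33 (SE 0.0812, adjusted p = 0.0143) in HET cells. Slc38a1 (SNAT1), a sodium-coupled carrier of glutamine and alanine, was at 20.6, 22.7 and 20.0 FPKM in KO CD62Llo against 17.3, 17.9 and 18.4 FPKM in KO CD62Lhi cells, and at 25.2, 24.4 and 25 FPKM in HET CD62Llo against 19.0 and 18.0 FPKM in HET CD62Lhi cells. It rose by 0.23 (SE 0.054, adjusted p = 0.0187) in KO and 0.41 (SE 0.0604, adjusted p = 0.00102) in HET, again without overlap.

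Slc38a2 (SNAT2), its neighbour on chromosome 15 and a carrier induced by amino acid shortage, went the other way. It was at 28.3, 26.0 and 32.2 FPKM in KO CD62Llo against 31.1, 31.8 and 34.2 FPKM in KO CD62Lhi cells, which overlap (log2 change -0.17, SE 0.0734, adjusted p = 0.167; without CD62Llo replicate 3, adjusted p = 0.0275, in a range of 0.0275 to 0.447). In HET cells the level was at 26.0, 27.8 and 26.9 FPKM in CD62Llo against 34.5 and 35.2 FPKM in CD62Lhi cells and fell by 0.36 on the log2 scale (SE 0.0821, adjusted p = 0.00936). That call ended without HET CD62Lhi replicate 1 (0.0504) or 2 (0.0628), in a range of 0.00474 to 0.0628 over 13 alternatives. For Slc1a5 the range was 0.00707 to 0.119 in KO, ended without CD62Lhi replicates 2 (0.119) or 3 (0.118) and CD62Llo replicates 1 (0.109) or 2 (0.0755). In HET it was 0.00248 to 0.135, ended without CD62Lhi replicate 2 (0.135). For Slc38a1 in KO it was 0.0162 to 0.0746, ended without CD62Lhi replicates 1 (0.0746) or 2 (0.0579) and CD62Llo replicate 2 (0.054). The other Slc38 genes tested, among them the lysosomal amino acid sensor Slc38a9 (3.55 to 4.47 FPKM over all libraries), were not called in any comparison.

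Of the exchangers of large neutral amino acids, the light chain Slc7a5 (LAT1), which carries leucine and tryptophan, fell in HET CD62Llo cells while its heavy chain did not change past the threshold. Slc7a5 was at 12.9, 13.8 and 13.6 FPKM in KO CD62Llo against 17.0, 17.0 and 15.4 FPKM in KO CD62Lhi cells, without overlap (log2 change -0.27, SE 0.0821, adjusted p = 0.0503, 0.0128 to 0.15 over alternatives). HET levels were at 13.1, 11.4 and 13.6 FPKM in CD62Llo against 17.8 and 14.9 FPKM in CD62Lhi cells, and fell by 0.34 (SE 0.0917, adjusted p = 0.0214). The difference between the 2 fraction changes was not called (adjusted p = 0.928). Slc3a2 was at 34.5, 38.5 and 34.4 FPKM in KO CD62Llo against 34.1, 34.3 and 29.2 FPKM in KO CD62Lhi cells (log2 change 0.14, SE 0.0742, adjusted p = 0.263). In HET it was at 40.7, 38.5 and 37.4 FPKM against 36.7 and 34.1 FPKM (log2 change 0.13, SE 0.0829, adjusted p = 0.272).

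The arginine and lysine importer Slc7a1 (CAT1) was at 8.85, 8.53 and 9.32 FPKM in KO CD62Llo against 10.6, 10.4 and 9.90 FPKM in KO CD62Lhi cells, and at 8.93, 9.31 and 8.87 FPKM in HET CD62Llo against 10.1 and 10.7 FPKM in HET CD62Lhi cells. It fell by 0.19 (SE 0.0508, adjusted p = 0.0319) in KO and 0.18 (SE 0.0567, adjusted p = 0.038) in HET, with every CD62Llo library below every CD62Lhi library. Over the alternatives the adjusted p was 0.0101 to 0.122 in KO, past the threshold in 8 of 14, and 0.00613 to 0.234 in HET, in 5 of 13. In KO the call ended without CD62Lhi replicate 1 (0.113) or 2 (0.103) and CD62Llo replicate 1 (0.0772) or 2 (0.107), and in HET without any 1 of the 5 libraries (0.0531 to 0.234). The Slc7a5 call in HET ran from 0.0044 to 0.197 and ended without CD62Lhi replicate 1 (0.197) or CD62Llo replicate 2 (0.06). Slc7a5 lies within the opposite-strand gene Gm20388, so its reads could be counted with it. The cystine importer Slc7a11 (1.46 to 1.95 FPKM), the lysosomal Slc7a14 (2.02 to 2.70 FPKM) and Slc7a6 (11.6 to 17.1 FPKM) were not called in any comparison.

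Among the monocarboxylate carriers, 3 of 6 tested Slc16 genes rose in CD62Llo cells in each genotype (11.9% of all genes in KO and 18.8% in HET) and none was called lower. Slc16a3 and Slc16a10 were called in both, Slc16a13 in KO and Slc16a6 in HET. Slc16a3 was at 3.33, 4.17 and 3.88 FPKM in KO CD62Llo against 2.63, 2.56 and 2.34 FPKM in KO CD62Lhi cells. It was at 5.01, 5.22 and 4.80 FPKM in HET CD62Llo against 2.76 and 3.34 FPKM in HET CD62Lhi cells. No libraries overlapped, and the rise was 0.45 (SE 0.0843, adjusted p = 0.00656) in KO and 0.57 (SE 0.0943, adjusted p = 0.00178) in HET. Slc16a1 (MCT1), which carries lactate in either direction, was at 5.74, 7.16 and 5.20 FPKM in KO CD62Llo against 5.30, 5.41 and 5.65 FPKM in KO CD62Lhi cells, and at 6.61, 5.42 and 6.11 FPKM in HET CD62Llo against 5.73 and 5.10 FPKM in HET CD62Lhi cells. These ranges overlap, and the log2 changes were 0.11 (adjusted p = 0.508) in KO and 0.13 (adjusted p = 0.431) in HET, the second turning to -0.03 with quantile normalization.

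Slc16a10 (TAT1) carries aromatic amino acids, not lactate. It was at 1.78, 2.38 and 1.54 FPKM in KO CD62Llo against 0.987, 0.872 and 1.02 FPKM in KO CD62Lhi cells, and at 1.82, 2.01 and 1.63 FPKM in HET CD62Llo against 1.07 and 1.13 FPKM in HET CD62Lhi cells. It rose by 0.56 (SE 0.111, adjusted p = 0.00828) in KO and 0.42 (SE 0.124, adjusted p = 0.0309) in HET, without overlap. The HET call ran from 0.0228 to 0.167 and ended without CD62Lhi replicate 1 (0.145) or 2 (0.108) and CD62Llo replicate 1 (0.0593) or 2 (0.0901).

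Slc16a6 (MCT7), which exports ketone bodies from zebrafish liver, was at 8.52, 7.67 and 9.06 FPKM in KO CD62Llo against 7.69, 7.13 and 7.32 FPKM in KO CD62Lhi cells (log2 change 0.17, SE 0.0792, adjusted p = 0.2). The HET libraries had 8.91, 10.3 and 10.6 FPKM against 7.15 and 6.41 FPKM (log2 change 0.49, SE 0.0886, adjusted p = 0.00292). The gene shares 1959 bases with the opposite-strand Amz2, which was at 7.73 to 14.6 FPKM over all libraries and itself rose in HET CD62Llo cells by 0.46 (SE 0.115, adjusted p = 0.015), and the 2 cannot be told apart without strand.

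The less studied Slc16a13 was called in KO, at 2.15, 2.33 and 1.70 FPKM in CD62Llo against 1.44, 1.32 and 1.29 FPKM in CD62Lhi cells (log2 change 0.38, SE 0.104, adjusted p = 0.0365). HET cells had 2.13, 1.75 and 1.63 FPKM against 1.39 and 1.68 FPKM, overlapping (log2 change 0.16, adjusted p = 0.341, and -0.02 with quantile normalization). The KO call ran from 0.016 to 0.181 over 14 alternatives and ended without CD62Lhi replicate 1 (0.0765), 2 (0.104) or 3 (0.104) and CD62Llo replicate 1 (0.0971) or 2 (0.126). Slc16a5 had the largest negative estimate and the largest spread of the family, at 4.72, 4.23 and 1.95 FPKM in KO CD62Llo against 6.13, 7.73 and 3.29 FPKM in KO CD62Lhi cells (log2 change -0.53, SE 0.352, adjusted p = 0.355). In HET cells the level was at 2.79, 1.12 and 1.01 FPKM against 5.57 and 3.75 FPKM (log2 change -1.15, SE 0.394, adjusted p = 0.0572), without overlap. It passed the threshold in 6 alternatives, one of them without HET CD62Llo replicate 1 (0.0243, in a range of 0.0226 to 0.274).

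Of the 5 tested Slc2 genes, 1 rose in HET CD62Llo cells, near the 18.8% of all genes that did, and none was called in KO. Slc2a1 was at 17.0, 17.6 and 16.6 FPKM in KO CD62Llo against 20.2, 19.3 and 18.3 FPKM in KO CD62Lhi cells (log2 change -0.17, SE 0.0775, adjusted p = 0.192). HET levels were at 17.5, 16.9 and 13.9 FPKM against 19.2 and 19.1 FPKM (log2 change -0.24, SE 0.0867, adjusted p = 0.067). All CD62Llo libraries lay below all CD62Lhi libraries in both genotypes, as they did for 10.5% of all genes in KO and 17.9% in HET. Neither difference passed the threshold as deposited, while median centring gave an adjusted p of 0.0437 in KO (range over alternatives 0.0437 to 0.412) and 0.0105 in HET (0.0105 to 0.218). Slc2a3 was at 16.9, 16.6 and 15.9 FPKM in KO CD62Llo against 18.9, 20.4 and 17.8 FPKM in KO CD62Lhi cells (log2 change -0.19, SE 0.0704, adjusted p = 0.0958). It passed the threshold with the replicate block (0.0336), median centring (0.0167) and quantile normalization (0.0249), in a range of 0.0167 to 0.279. In HET it was at 21.3, 20.7 and 18.1 FPKM against 21.8 and 20.5 FPKM, overlapping (log2 change -0.08, adjusted p = 0.507).

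Slc2a6 (GLUT6), a carrier of intracellular membranes, was the glucose family member called. It reached 1 FPKM in 2 libraries, both HET CD62Llo, and so entered the test through the group where it is high. It was at 0.609, 0.448 and 0.895 FPKM in KO CD62Llo against 0.254, 0.323 and 0.410 FPKM in KO CD62Lhi cells (log2 change 0.31, SE 0.211, adjusted p = 0.377). The HET libraries had 1.09, 2.34 and 0.907 FPKM in CD62Llo against 0.232 and 0.632 FPKM in CD62Lhi cells (log2 change 0.74, SE 0.236, adjusted p = 0.0428). HET CD62Llo replicate 2 stood above the other two, and the call held in 3 of 10 alternatives. Its adjusted p ran from 0.0269 to 0.265 and it ended without the filter (0.0618) and without CD62Lhi replicate 1 (0.265) or 2 (0.0602). Slc2a8 (GLUT8), another intracellular carrier, was at 3.92, 3.63 and 3.5 FPKM in HET CD62Llo against 2.80 and 2.08 FPKM in HET CD62Lhi cells, without overlap and not called (log2 change 0.45, SE 0.176, adjusted p = 0.0857, 0.0513 to 0.393 over alternatives). In KO it was at 2.46 to 3.57 FPKM in CD62Llo against 2.16 to 3.56 FPKM in CD62Lhi cells, which overlap. The urate and fructose carrier Slc2a9 (4.34 to 5.39 FPKM) was not called.

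The transporters called between genotypes in CD62Llo cells were all lower in KO. In KO against HET CD62Llo cells, 3 of 29 were called lower, where 3.25% of all genes were, and none higher, where 1.36% were (4.6% in either direction). These were Slc7a10, Slc38a1 and Slc43a2. Leaving out the genes that passed the filter through CD62Llo libraries alone, 2 of 26 were called lower and 0 higher. In 8 of the 29, every KO CD62Llo library lay below every HET CD62Llo library, against 13.7% of all genes, and in none did every one lie above, against 6.55%. The 8 include Slc2a6, which passed the filter through HET CD62Llo libraries alone (at most 0.895 FPKM in KO, at least 0.907 FPKM in HET). They also include Slc43a3, whose nearest KO and HET libraries were almost level. The median log2 change of the 29 was -0.02, beside -0.03 over all genes. Some markers of the fractions and of other cells also differed between these 2 groups without overlap. Klf2 and S1pr1, which keep resting T cells circulating, were at 71.7 to 94.1 and 93.1 to 125 FPKM in KO CD62Llo against 44.9 to 51.6 and 60.3 to 67.7 FPKM in HET CD62Llo libraries, so KO stood nearer to the CD62Lhi levels (151 to 170 and 189 to 217 over both genotypes). Summed Treg and T cell markers were at 1830 to 2060 FPKM in KO CD62Llo against 2090 to 2310 FPKM in HET CD62Llo libraries. Of the lists for other cells only stroma and endothelium markers separated, at 51.1 to 56.3 against 37.4 to 40.9. The sums for B cells, CD8 T and NK cells, plasma cells, myeloid cells, and red cells and platelets overlapped. The part of any of these markers in the calls was not tested. These values share the HET CD62Llo libraries with the HET fraction comparison and the KO CD62Llo libraries with the KO one.

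Slc7a10, with the library values given above, averaged 1.18 ± 0.166 FPKM in KO CD62Llo and 3.24 ± 0.871 FPKM in HET CD62Llo cells (SD, n = 3 each), a ratio of 0.365. The log2(FPKM + 1) change was -0.94 (SE 0.148, adjusted p = 0.0098). Slc38a1 averaged 21.1 ± 1.41 FPKM in KO and 24.9 ± 0.429 FPKM in HET CD62Llo cells (log2 change -0.23, SE 0.054, adjusted p = 0.0462). Slc43a2 averaged 13.3 ± 0.777 FPKM in KO and 15.8 ± 0.284 FPKM in HET CD62Llo cells (log2 change -0.23, SE 0.0514, adjusted p = 0.0373). In the 3 genes no KO CD62Llo library reached the lowest HET CD62Llo library.

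Same-numbered libraries of the 2 CD62Llo groups deviated together (correlations 0.165, 0.153 and 0.148 over tested genes), and with the replicate number as a block the fit called 5 genes lower. It added Slc16a3 (adjusted p = 0.0426), Slc2a3 (0.0254) and Slc43a1 (0.0278) and lost Slc38a1 (0.058). Without the block these were at 0.0623 for Slc16a3 (3.79 ± 0.424 FPKM in KO and 5.01 ± 0.21 FPKM in HET), 0.0704 for Slc2a3 (16.5 ± 0.493 and 20.0 ± 1.70) and 0.0673 for Slc43a1 (2.53 ± 0.306 and 4.26 ± 0.53), and over the alternatives they reached up to 0.193, 0.209 and 0.177 in that order. Slc43a3 (log2 change -0.38, adjusted p = 0.135) passed without KO CD62Llo replicate 2 (0.0257, in a range of 0.0257 to 0.367). The Slc7a10 call ran from 0.00652 to 0.0715 over 14 alternatives and was lost in 3, at a pseudocount of 0.1 (0.0553), in a fit of the 2 groups alone (0.0715) and without the CD62Llo library of each genotype with the most myeloid marker signal (0.0523). Those of Slc38a1 (0.0173 to 0.18) and Slc43a2 (0.0374 to 0.171) held in 4 and 5 of 14. The Slc38a1 call ended without HET CD62Llo replicates 1 (0.0945), 2 (0.113) or 3 (0.111) and KO CD62Llo replicates 1 (0.151) or 3 (0.136), and that of Slc43a2 without the same 5 libraries, at 0.0704, 0.0993, 0.102, 0.115 and 0.069. Both also ended with median centring (0.0546 and 0.0585), quantile normalization (0.0792 and 0.0581) and a fit of the 2 groups alone (0.18 and 0.171), and the one of Slc38a1 with a pseudocount of 0.1 (0.0521). Without the library of each genotype with the most myeloid signal that of Slc43a2 was at 0.0672. Without KO CD62Llo replicate 2 the count was 5, and without any 1 of HET replicates 1 or 2 or KO replicates 1 or 3 it was 1.

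**Figure D4:**
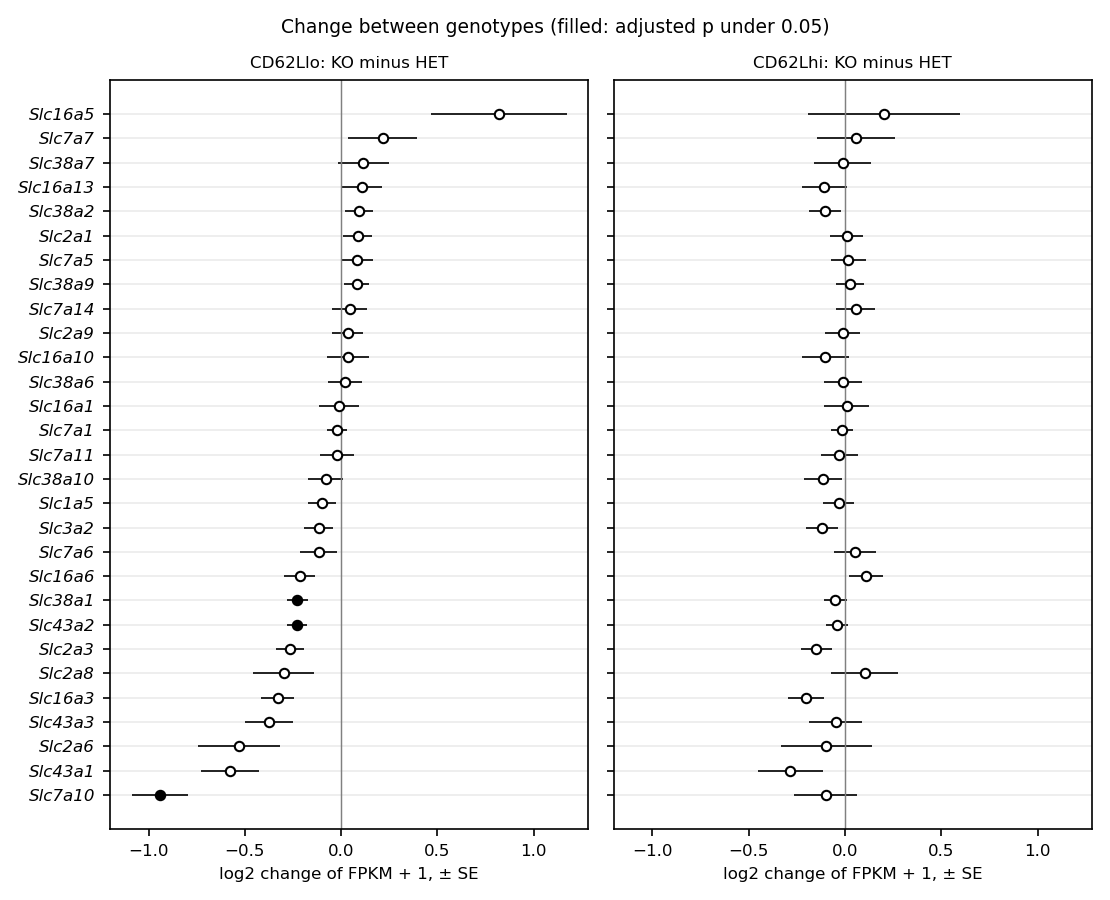
Change of each tested transporter gene between KO and HET Tregs, as log2 change of FPKM + 1 with its standard error, in CD62Llo (left) and CD62Lhi cells (right); filled points have an adjusted p under 0.05. In CD62Llo cells Slc7a10 lies at -0.94, and in CD62Lhi cells no point is filled.

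In CD62Lhi cells limma called no transporter between KO and HET. It called none of the 11431 genes either (0%), while 0 of the 29 and 328 of all genes had an unadjusted p under 0.05. In 1 of the 29 every KO library lay above both HET libraries, against 7.83% of all genes, and in 5 below, against 14.4%. Slc7a10 averaged 0.0344 ± 0.02 FPKM in KO (SD, n = 3) and 0.111 ± 0.0904 FPKM in HET CD62Lhi cells (SD, n = 2), so it was near 0 in both. For Slc7a10 the fraction change in KO minus that in HET was -0.84 (SE 0.221), at an adjusted p of 0.332, so a smaller rise in KO was not established across all genes.

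Partners of the carriers, the first enzymes that use their cargo and the regulators of amino acid sensing were listed as 42 genes, of which 35 were tested. In KO CD62Llo against CD62Lhi cells 8 rose, where 11.9% of all genes did, and 1 fell, where 4.26% did. In HET 11 rose, where 18.8% did, and 4 fell, near the 8.88% of all genes that did. Odc1, which turns arginine-derived ornithine into polyamines, averaged 49.0 ± 6.21 FPKM in KO CD62Llo and 25.2 ± 0.642 FPKM in KO CD62Lhi cells (log2 change 0.93, adjusted p = 0.000187). It averaged 73.6 ± 5.57 and 24.5 ± 0.863 FPKM in HET CD62Llo and CD62Lhi cells (log2 change 1.55, adjusted p = 1.17e-05). Hif1a, the hypoxia-inducible factor subunit that drives glycolytic genes, rose by 1 on the log2 scale in KO (adjusted p = 0.000823) and 1.46 in HET (adjusted p = 9.01e-05). The same was true of Arrdc4, an arrestin that removes GLUT1 from the surface (0.91 and 1.44), Bcat1, the cytosolic branched-chain aminotransferase (0.68 and 0.76), and the leucine sensor Sesn2 (0.45 and 0.46). Trib3, an ATF4 target, fell in both (-0.57 and -0.66). With quantile normalization the Sesn2 call in HET ended (adjusted p = 0.0638).

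Emb (embigin), a chaperone of monocarboxylate carriers, was at 44.8, 49.8 and 43.5 FPKM in KO CD62Llo against 38.7, 45.1 and 39.4 FPKM in KO CD62Lhi cells (log2 change 0.16, adjusted p = 0.274). HET cells had 56.2, 63.9 and 70.4 FPKM against 35.5 and 36.8 FPKM (log2 change 0.79, SE 0.102, adjusted p = 0.00045). The other chaperone of these carriers, Bsg (basigin), was at 72.4 to 86.7 FPKM and was not called (log2 change 0.13, adjusted p = 0.139 in KO and 0.18, adjusted p = 0.0537 in HET). Hk2, which phosphorylates glucose, averaged 1.11 ± 0.206 FPKM in KO CD62Llo and 0.729 ± 0.246 FPKM in KO CD62Lhi cells (log2 change 0.29, adjusted p = 0.126), and in HET 1.66 ± 0.0753 and 0.815 ± 0.0423 FPKM (log2 change 0.55, adjusted p = 0.0115). Without HET CD62Lhi replicate 1 or 2 the Hk2 call in HET ended (0.0568 and 0.073). With quantile normalization the Hk2 call in HET also ended (adjusted p = 0.0638). Ldha, which makes lactate, was at 282 to 341 FPKM over all libraries and was not called.

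The transcription factor Myc, known to induce amino acid carriers in activated T cells, averaged 60.9 ± 5.51 FPKM in KO CD62Llo and 70.4 ± 1.66 FPKM in KO CD62Lhi cells (log2 change -0.21, adjusted p = 0.0993). In HET it averaged 47.5 ± 4.33 and 71.0 ± 0.101 FPKM and fell by 0.57 (SE 0.0853, adjusted p = 0.00103). Between genotypes in CD62Llo cells Myc was higher in KO (log2 change 0.35, SE 0.0763, adjusted p = 0.0341), and Odc1 (-0.58, adjusted p = 0.00825) and Emb (-0.45, adjusted p = 0.0252) were lower, the only 3 of the 35 called there. The Myc call ended without KO CD62Llo replicate 1 (0.0682) or 3 (0.0868) and HET CD62Llo replicate 1 (0.0728) or 2 (0.122). The Emb call ended without KO CD62Llo replicate 1 (0.0936) or 3 (0.0806) and HET CD62Llo replicate 2 (0.0895) or 3 (0.0727). A fit of the 2 groups alone ended all 3 calls, with Myc at 0.165, Emb at 0.103 and Odc1 at 0.0715. Without the CD62Llo library of each genotype with the most myeloid marker signal, Myc was at 0.0751.

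Some carriers at low level were highest in the libraries with the most myeloid marker signal. Of the 10 myeloid markers in the files, among them Lyz2, Cd14 and Csf1r, 0 were listed at 0 in every KO CD62Llo library, 1 in KO CD62Lhi, 1 in HET CD62Llo and 2 in HET CD62Lhi libraries. Their summed FPKM was 246, 387 and 114 in KO CD62Llo against 89.3, 102 and 93.1 in KO CD62Lhi libraries, and 226, 159 and 140 in HET CD62Llo against 119 and 92.0 in HET CD62Lhi libraries. Slc7a7 (y+LAT1), the cationic amino acid exchanger of macrophages and epithelia, was at 1.56, 2.33 and 1.05 FPKM in KO CD62Llo against 0.815, 0.789 and 0.969 FPKM in KO CD62Lhi libraries. It was at 1.74, 1.04 and 1 FPKM in HET CD62Llo against 0.882 and 0.687 FPKM in HET CD62Lhi libraries, and was not called. It thus stood highest in the same 3 CD62Llo libraries that had the most myeloid signal.

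Slc7a8 (LAT2), Slc1a3, a glutamate carrier, and Slc16a9 did likewise, at 0.288 to 0.963 FPKM in these 3 libraries against 0.0428 to 0.183 FPKM in the other 3 CD62Llo libraries. Slc16a13 and Slc16a5, with the library values given above, also stood higher in these 3 libraries than in the other 3 CD62Llo libraries. Slc7a10 did not, at 1.19, 1.01 and 1.34 FPKM in KO CD62Llo replicates 1, 2 and 3. Over all libraries Slc16a5 did not follow the myeloid order. It was at 3.29 to 7.73 FPKM in the CD62Lhi libraries, all with less myeloid signal than the 3 CD62Llo libraries with the most. The low-level carriers were chosen after their values were seen, and how many others stood in this order was not counted. When the CD62Llo library with the most myeloid signal was left out in each genotype (KO replicate 2 and HET replicate 1), an alternative added after the marker values were seen, 3 of 28 tested transporters were called in KO, where 11.2% of all genes were, against 8 of 29 with all libraries. The KO calls of Slc16a13 (adjusted p = 0.0962), Slc1a5 (0.0874), Slc38a1 (0.0642), Slc43a3 (0.0737) and Slc7a1 (0.122) were lost. In HET 9 rose and 4 fell (19.4% and 10% of all genes), against 10 and 3 with all libraries. The HET call of Slc7a1 was lost (0.0697), Slc2a6 was no longer tested, and Slc16a5 (0.031) and Slc2a1 (0.0388) were called lower. Slc7a10, Slc16a3 and Slc16a10 kept their calls in both genotypes. The part of other cells in the remaining differences was not tested.

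**Figure D5:**
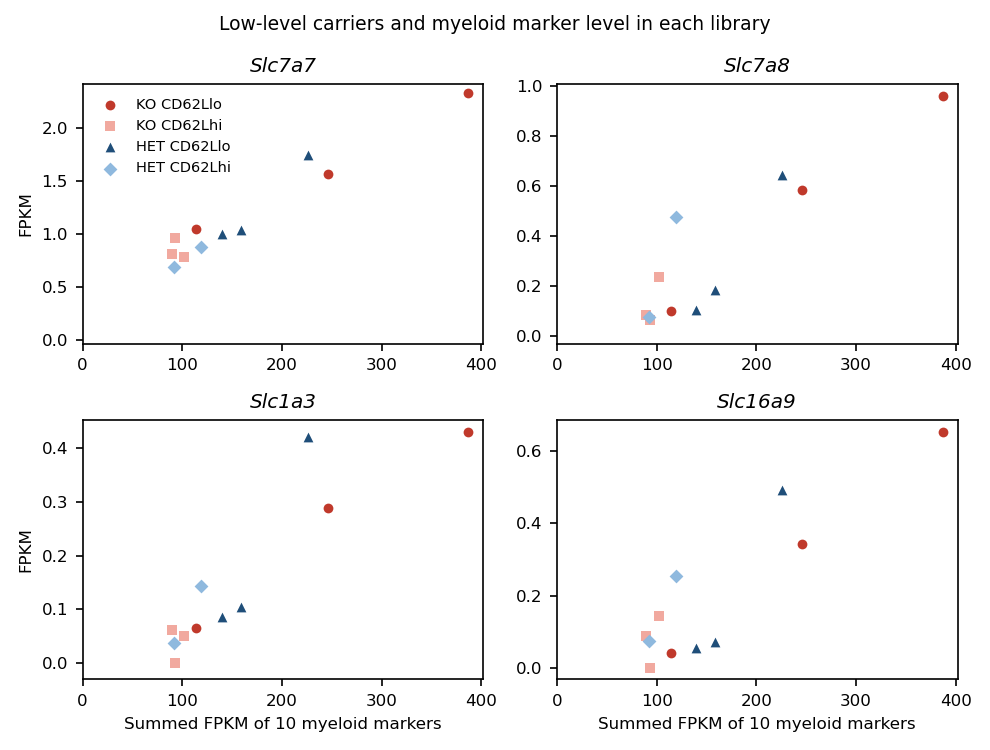
FPKM of 4 low-level carriers (vertical) against the summed FPKM of 10 myeloid markers (horizontal) in the 11 libraries; each point is a library, with KO CD62Llo in red circles, KO CD62Lhi in pink squares, HET CD62Llo in dark blue triangles and HET CD62Lhi in light blue diamonds. The 3 CD62Llo libraries with summed myeloid FPKM of 226, 246 and 387 hold the 3 highest values of each gene.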

How the data were processed

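RNA of sorted Tregs was read from poly(A)-selected TruSeq libraries as single 50 bp ends, per the labels' protocols and design text. The authors deposited FPKM per gene, and the submitters' processing notes name the build mm10 and the tools Cufflinks 2.1.1, TopHat, CASAVA 1.8.2 and FastQC. The sources used here state no settings and no strand, and without read counts depth is known only relatively, and 12.1% to 30.8% of entries above 1 FPKM exceeded their own deposited upper bound.

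Entries of 1 symbol were summed. Values of log2(FPKM + 1) of the 11 libraries were fitted with limma 3.58.1 (R 4.3.3), 4 group means, empirical Bayes with trend and Benjamini-Hochberg adjustment at 0.05, over 11431 genes with at least 1 FPKM in at least 2 libraries. The code was tested on simulated data. Genes named with all values are members with a group mean of at least 1 FPKM called in any contrast, the highest of each family and a set list of main carriers; Slc16a5, Slc2a8, Slc2a9 and the low-level carriers were added after their values were seen. Members and lists were chosen with earlier results of these data known. Alternatives were the pseudocount, filter, scaling, samples fitted, replicate block, entry choice and leaving out each library. Same-numbered libraries deviated together at over 0.1 in every pair only between the CD62Llo groups (0.165, 0.153, 0.148); the labels do not say what the numbers share.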

Additional observations from a re-analysis of the deposited data

Results flagged for a closer look

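The library left out of all comparisons, Ezh2-HET-CD62Lhi replicate 3, listed 589 of 23846 gene entries above 0, against 15338 to 16468 in the other 11. Of the 64 transporters it listed 3 above 0, all of them above every other library: Slc38a10 at 505.9 FPKM, Slc38a1 at 217.4 FPKM and Slc38a2 at 168.4 FPKM. These values come from data that no comparison used, and with so few entries above 0 they are not levels that can be set beside the others. No transporter had fractions that separated in opposite directions in KO and HET.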

How the results depend on the processing

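Across the 24 called changes, 320 alternative values were computed, of which 226 stayed past the threshold, 94 did not and 0 changed sign. The count of transporters called in KO between fractions was 8 with all libraries and 4 when only the groups compared were fitted. It was 3 without the CD62Llo library of each genotype with the most myeloid marker signal (an alternative chosen after seeing the data). With 1 library left out it ranged from 3 to 10, and that in HET, 13, from 6 to 12. Between genotypes in CD62Llo cells the count of 3 became 1 with median centring, 1 with quantile normalization, 1 with a pseudocount of 0.1, 0 when only the groups compared were fitted and 5 with the replicate block, and ranged from 1 to 5 with 1 library left out. In CD62Lhi cells and for the interaction it ranged from 0 to 0. Of the 24 other changes given the same alternatives, none of them called with all libraries, 3 turned sign, all near 0; the remaining changes not called were not followed. The 3 were Slc16a1 (-0.028) and Slc16a13 (-0.019) in HET with quantile normalization, and Slc43a2 in KO (-0.006) with median centring. The cause was not tested.

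Between fractions the same-numbered correlations were all positive, at 0.131, 0.0684 and 0.178 in KO and 0.135 and 0.0732 in HET, though not all over 0.1. Differently numbered pairs ran from -0.1785 to 0.0858 in KO and from -0.1345 to 0.0603 in HET. With 2 HET CD62Lhi libraries the deviations from their mean mirror each other. Each HET value thus has its opposite, as 0.0732 and -0.0732 for CD62Llo replicate 2. In KO against HET CD62Lhi cells the same-numbered correlations were 0.0749 and -0.0325. Whether the numbers pair libraries in these comparisons is not known. Between fractions the replicate block raised the share of all genes called from 16.2% to 20% in KO and from 27.7% to 31.8% in HET. Among the transporters the block ended the HET calls of Slc2a6 (adjusted p = 0.0527) and Slc7a1 (0.0571). It brought Slc16a5 in HET (0.0226) and Slc2a3 in KO (0.0336) past the threshold, both lower in CD62Llo cells. Leaving out 1 HET CD62Lhi library leaves 1, which is then assumed to vary like the other groups. Relative depth, a rough estimate, spanned 0.504 to 1.84, and FPKM gives no counting error, so the precision that depth allows for low carriers is not known.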
